A study of Homo sapiens with 9 samples.

Results

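The genes described here are TP63 and TP73, which encode the transcription factors p63 and p73, together with RPRM and 7 other genes that p53-type transcription factors are known to activate, namely CDKN1A, MDM2, GADD45A, SFN, PERP, ZMAT3 and BTG2. These 10 genes were found by matching their symbols to the Ensembl identifiers of the count tables, which hold 60617 genes, and 9 of the 10 passed the filter on low counts and were tested among 18532 genes. RNA was sequenced from PC-3, a human prostate cancer line that has no functional p53, in 9 libraries of 3 per group. The control group received vehicle, the decitabine group 1 µM decitabine, and the combination group 1 µM decitabine with 200 µM S-adenosylmethionine (SAM), all for 5 days, with doses and vehicle taken from the study's methods. Decitabine is a cytidine analogue that traps DNA methyltransferases, and SAM is the methyl donor those enzymes use. No group received SAM alone among the libraries analysed here, all come from 1 line, and the sources do not say whether the 3 replicates were separate cultures, so the p-values measure the spread between libraries, which may be technical.

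The p53 family consists of the transcription factors p53, p63 and p73, which bind related DNA sequences as tetramers. p53 is best known for halting the cell cycle or killing the cell after DNA damage, p63 for maintaining basal and stratified epithelia, and p73 for roles in neural development and multiciliated cells. In the prostate, p63 marks basal cells. Because the family shares its recognition sequence, p63 and p73 can act on many genes first described as p53 targets, and other factors can act on them too.

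Each library held between 21934307 and 22489684 counts. Scaling with the trimmed mean of M-values (TMM) gave factors of 0.895 to 0.902 in the controls and of 1.03 to 1.08 in the treated libraries. Levels below are TMM-scaled CPM, which are counts set relative to the size of their library, and fold changes are on the log2 scale with their standard error (SE) from edgeR. With library size alone in place of TMM, the median log2 fold change over all genes moved from 0.035 to 0.280 for decitabine and from 0.048 to 0.267 for the combination, each against control. The epithelial markers KRT8, KRT18, KRT19, EPCAM and CDH1 were present in every group, with summed levels of 874 to 955 CPM in the controls, 868 to 920 under decitabine and 726 to 866 under the combination. KRT8 and CDH1 were called higher and KRT18 and KRT19 lower in both treated groups, though KRT18 was not called under decitabine with library size alone (adjusted p = 0.95), and CDH1 went from 1.87 ± 0.116 CPM to 14.3 ± 0.638 and 16.9 ± 1.52 CPM (SD, n = 3 each). KLK3, a marker of luminal prostate cells, had 0 counts in each group. Of 6 markers of leukocytes, stroma and endothelium, 4 were tested. All 4 were called higher in both treated groups, beside 36.3% of all genes under decitabine and 35.9% under the combination. PTPRC, DCN and VWF had at most 2 counts in any control library and passed the filter only through the treated libraries. Being tested thus already required counts there. The summed level of the 6 was 9.87 to 10.5 CPM in the controls, 33.1 to 43.4 CPM under decitabine and 38.8 to 45.1 CPM under the combination, most of it PECAM1, while CD3E, a T cell marker, had 0 counts in the controls. The part of these markers in the results below was not tested.

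The stretch of DNA just before a gene's start is where methylation of CpG dinucleotides is most often studied. The 250 bases before the start are therefore shown for the 4 members with the most distinct responses. TP63 went from almost nothing to a clear level. RPRM and CDKN1A were present in the controls, at means of 1.74 and 10.4 CPM, and rose. ZMAT3 was called against decitabine alone. Sequences are from RefSeq on GRCh38.p14, on the strand of the gene, and the capitals mark each CpG.
TP63, chr3:189631139-189631388, plus strand: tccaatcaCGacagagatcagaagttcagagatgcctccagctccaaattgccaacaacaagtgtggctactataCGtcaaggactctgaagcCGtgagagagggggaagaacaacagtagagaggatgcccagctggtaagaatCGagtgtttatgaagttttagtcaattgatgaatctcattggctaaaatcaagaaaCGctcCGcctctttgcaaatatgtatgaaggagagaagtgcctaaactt
RPRM, chr2:153478763-153479012, minus strand: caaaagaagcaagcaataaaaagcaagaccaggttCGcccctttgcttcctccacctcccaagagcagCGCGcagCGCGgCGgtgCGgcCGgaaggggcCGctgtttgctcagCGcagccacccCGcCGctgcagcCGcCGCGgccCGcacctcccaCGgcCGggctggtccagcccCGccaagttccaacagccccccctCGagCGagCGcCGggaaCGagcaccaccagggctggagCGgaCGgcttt
CDKN1A, chr6:36678464-36678713, plus strand: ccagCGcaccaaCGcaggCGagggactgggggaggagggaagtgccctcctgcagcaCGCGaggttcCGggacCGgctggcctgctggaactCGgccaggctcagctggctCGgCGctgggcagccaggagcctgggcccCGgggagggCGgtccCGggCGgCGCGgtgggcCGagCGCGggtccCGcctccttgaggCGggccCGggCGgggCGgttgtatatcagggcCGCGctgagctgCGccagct
ZMAT3, chr3:179071810-179072059, minus strand: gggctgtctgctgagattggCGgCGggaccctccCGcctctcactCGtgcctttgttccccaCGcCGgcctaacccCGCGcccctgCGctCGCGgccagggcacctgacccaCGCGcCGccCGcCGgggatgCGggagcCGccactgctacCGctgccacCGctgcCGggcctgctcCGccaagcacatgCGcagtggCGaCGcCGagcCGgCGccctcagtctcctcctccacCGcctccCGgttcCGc
The windows hold 6 CpG sites before TP63, 26 before RPRM, 27 before CDKN1A and 31 before ZMAT3. Over the 27305 promoters of the same length in the table the median is 11, with quartiles of 3 and 23. Of all these promoters, 41.6% have no more CpG sites than the TP63 window, 82.7% no more than that of RPRM, 84.5% no more than that of CDKN1A and 90.7% no more than that of ZMAT3. Of the other members, TP73 had 38 sites, PERP 34, MDM2 33, BTG2 30 and SFN 3, and GADD45A had no entry. The p53 half-site consensus, searched by that name with its degenerate letters on both strands, had no match in the 9 windows and a match in 5.53% of all promoters, which says only that those letters are not in these windows. DNA methylation was not part of the RNA files, and its relation to these sequences was not tested here. The study itself measured TP63 promoter methylation by PCR, and a primer of that assay lies in the TP63 window above. It reports lower methylation with decitabine and with the combination than in untreated cells.

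TP63 encodes p63, and its transcript was close to absent in untreated cells. The control libraries held 0, 1 and 1 counts, the decitabine libraries 154, 141 and 124, and the combination libraries 171, 201 and 139. Each of the 6 treated libraries was thus far above each control library. The group levels were 0.0331 ± 0.0287, 5.90 ± 0.630 and 7.39 ± 1.46 CPM (SD, n = 3 each). Because the controls held only 2 counts in all, the ratio is given with its 95% exact counting interval, which covers counting error only: 178-fold (49.0 to 1476) under decitabine and 223-fold (61.4 to 1847) under the combination. Both rises passed the test, with adjusted p of 2e-09 and 1e-09. Between the treated groups the libraries overlapped and the difference of 0.33 (SE 0.18) did not pass, at an adjusted p of 0.23. More transcript per cell and more cells with the transcript cannot be told apart in these bulk libraries.

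The gene lies at chr3:189631389-189897276 (GRCh38, GENCODE) and has 12 coding transcripts whose starts are spread over 158412 bases. Transcripts from the upstream start encode the TA forms of p63, with the transactivation domain, and those from the internal start the ΔN forms that basal cells use. The window printed above precedes the upstream start only. The counts are per gene, so TA and ΔN forms could not be told apart.

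TP73, which encodes p73, stayed near the limit of detection. No count fell in any control library, the decitabine libraries had 1, 3 and 0 counts, and the combination libraries 1, 3 and 1. The sums of 4 and 5 counts lie close to the 3 counts that a sum of 0 still allows, and the gene was below the filter and not tested. A difference was not detectable at this depth. Neighbouring transcripts on the opposite strand, TP73-AS1 and WRAP73, held 2038 and 2621 counts in the controls, and whether the libraries kept the strand is not given in the sources used here.

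**Figure D1:**
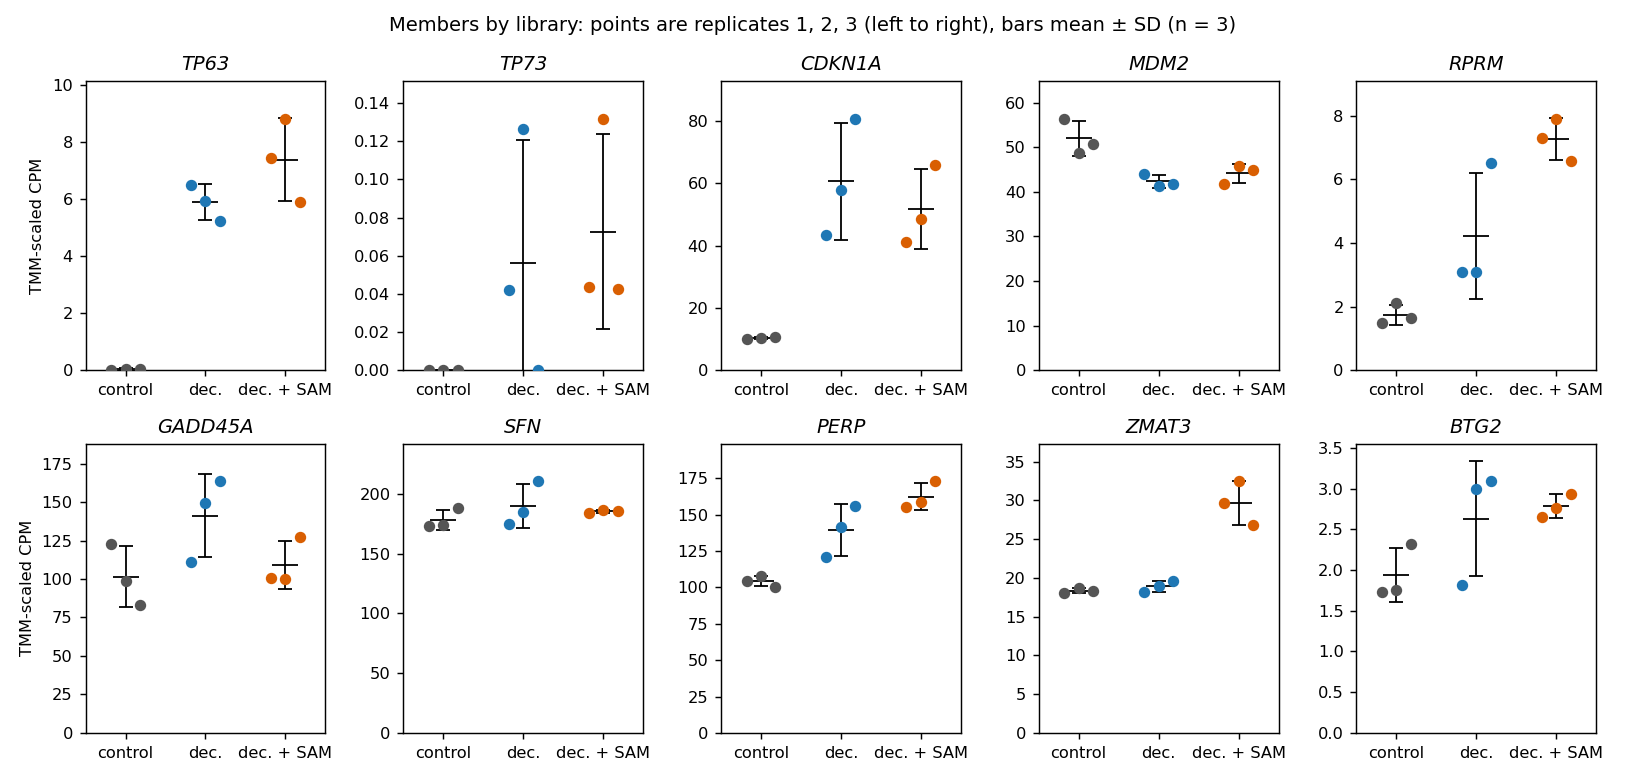
TMM-scaled CPM (y axis, linear and from 0, with its own range in each panel) of the 10 genes in each library, grouped by control, decitabine (dec.) and decitabine with SAM (dec. + SAM). Points are replicates 1 to 3 and bars the mean ± SD (n = 3), cut at 0 for TP73. TP63 and CDKN1A are higher in both treated groups, ZMAT3 in the combination alone, and SFN lies between 173 and 210.3 CPM in all 9 libraries.

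Among the 9 members tested, 5 were called higher and 1 lower under decitabine, where 36.3% of all genes tested were called higher and 32.5% lower. With the combination the counts were again 5 higher and 1 lower, against 35.9% and 31.3% of all genes. Without TMM, by library size alone, the split was 8 higher and 0 lower under decitabine and 7 higher and 0 lower under the combination. Of all 18532 genes, that scaling called 8838 higher and 3758 lower under decitabine, and 8685 and 3864 under the combination. The median log2 fold change of the 9 was 0.44 and 0.64, beside 0.035 and 0.048 over all genes tested. For the combination against decitabine, 1 member was called higher and 0 lower at an adjusted p under 0.05 in edgeR, where 7.67% and 8.02% of all genes were called. At an unadjusted p under 0.05 it was 3 higher and 0 lower, and DESeq2 and limma each called 2 higher and 0 lower. The levels of the libraries did not overlap in 5 of the 9 for decitabine (4 higher, 1 lower), against 38.1% and 34.8% of all genes. They did not overlap in 7 for the combination (6 higher, 1 lower), against 38% and 33.6%, and in 2 between the treated groups (both higher), against 17.2% and 16.8%. Both comparisons with control use the same 3 control libraries, so their values are given side by side and not as independent results.

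CDKN1A encodes p21, the inhibitor of cyclin-dependent kinases through which p53 is best known to stop the cell cycle. Its level was 10.02, 10.5 and 10.6 CPM in the controls. With decitabine it was 43.5, 57.8 and 80.8 CPM, and under the combination 41.1, 48.6 and 66.1 CPM. The control libraries were close to each other, while every treated library was far above them and replicate 3 was the highest in both treated groups. The rise was 2.55 (SE 0.27, adjusted p = 6.9e-05) under decitabine and 2.32 (SE 0.27, adjusted p = 0.00013) under the combination, or 5.85-fold and 5.00-fold. The treated groups overlapped, and their difference of −0.22 (SE 0.24) did not pass, at an adjusted p of 0.58. DINOL, a noncoding RNA on the opposite strand of CDKN1A, had 0, 11 and 6 counts in the 3 groups.

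RPRM encodes reprimo, a small protein known for its part in arrest at G2 and as a gene silenced by methylation in several cancers. Its level was 1.49, 2.10 and 1.63 CPM in the controls. With decitabine 2 libraries had 3.08 CPM each and the third 6.51 CPM, and under the combination the 3 had 7.31, 7.91 and 6.59 CPM. No group overlapped another, though decitabine replicate 3 lay just below the lowest combination library. RPRM rose by 1.28 (SE 0.29, adjusted p = 0.0015) under decitabine and by 2.06 (SE 0.28, adjusted p = 2.4e-05) under the combination. The difference between the combination and decitabine was 0.78 (SE 0.25) and narrowly missed the threshold, at an adjusted p of 0.051. With 1 library left out it ran from 0.60 (without decitabine replicate 2, adjusted p = 0.19) to 1.24 (without decitabine replicate 3, adjusted p = 0.0012), and it passed only in the latter of these 9 fits. Without decitabine replicate 3 the rise over control under decitabine was 0.82, still past the test (adjusted p = 0.003). RPRM lies within a noncoding transcript of the same strand, ENSG00000227400, which had 120, 115 and 121 counts in the 3 groups.

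GADD45A, a stress-induced partner of PCNA and of stress kinases, had 122.9, 98.4 and 83.3 CPM in the controls. With decitabine it had 111.1, 149.1 and 163.4 CPM, and under the combination 100.8, 99.8 and 127.2 CPM. The decitabine and control groups overlapped at control replicate 1, and the difference of 0.48 (SE 0.18) passed only just, at an adjusted p of 0.044. The call was lost on leaving out any of 6 of the 9 libraries (control 2 or 3, decitabine 2 or 3, combination 1 or 2), where the adjusted p rose to between 0.052 and 0.15. The combination differed from control by 0.11 (SE 0.18, adjusted p = 0.63) and from decitabine by −0.37 (SE 0.18, adjusted p = 0.21).

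SFN encodes 14-3-3σ, an epithelial 14-3-3 protein that holds the CDK1 kinase complex in the cytoplasm. Per kilobase of its canonical transcript it had the highest level of the 10 genes in the controls, at 136 CPM per kilobase. Its level was 173, 174.2 and 187.8 CPM in the controls, 174.7, 184.9 and 210.3 under decitabine, and 183.7, 186.2 and 185.9 under the combination. The groups overlapped throughout and no difference passed, with 0.09 (SE 0.08, adjusted p = 0.30) for decitabine and 0.06 (SE 0.08, adjusted p = 0.53) for the combination, but with library size alone both were called higher, by 0.34 (adjusted p = 0.0017) and 0.28 (adjusted p = 0.0067).

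BTG2, an antiproliferative protein that works with the deadenylase complex, was among the lowest of the tested members. It had 1.74, 1.75 and 2.32 CPM in the controls, 1.82, 2.99 and 3.09 under decitabine, and 2.65, 2.77 and 2.94 under the combination. The combination libraries were all above the controls, and the decitabine libraries were not. Neither difference passed, at 0.44 (SE 0.23, adjusted p = 0.10) and 0.52 (SE 0.23, adjusted p = 0.057), and library size alone called both, at 0.69 (adjusted p = 0.018) and 0.74 (adjusted p = 0.012).

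MDM2 encodes the ubiquitin ligase that degrades p53 and is itself induced by p53, forming the feedback loop of the pathway. It had 56.4, 48.7 and 50.8 CPM in the controls, 44.1, 41.4 and 41.8 under decitabine, and 41.8, 45.8 and 44.8 under the combination. All treated libraries were below all controls, and MDM2 was the 1 member called lower, by −0.29 (SE 0.08, adjusted p = 0.0039) and −0.24 (SE 0.08, adjusted p = 0.015). This call depends on the scaling: with library size alone the values were −0.05 (adjusted p = 0.61) and −0.02 (adjusted p = 0.87). Leaving out control replicate 1 also ended the call for the combination, at −0.18 with an adjusted p of 0.064. The end of MDM2 overlaps CPM, the gene of a carboxypeptidase on the opposite strand, which had 638, 2326 and 2043 counts in the 3 groups.

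PERP, a membrane protein of desmosomes that is a target of both p53 and p63, had 104.6, 107.9 and 100.6 CPM in the controls. It had 120.7, 141.4 and 156.0 CPM under decitabine, and 155.6, 158.8 and 172.9 CPM under the combination. Every treated library was above every control. The rise was 0.42 (SE 0.09, adjusted p = 0.00068) and 0.64 (SE 0.09, adjusted p = 1.7e-05), and between the treated groups, which overlapped only at decitabine replicate 3, the difference of 0.22 (SE 0.09) did not pass, at an adjusted p of 0.098. With 1 library left out that last difference ran from 0.13 (without decitabine replicate 1, adjusted p = 0.33) to 0.31 (without decitabine replicate 3, adjusted p = 0.026), and it passed only in the latter of these 9 fits.

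ZMAT3 encodes an RNA-binding zinc finger protein, also called Wig-1, that takes part in RNA splicing and stability. It had 18.1, 18.7 and 18.2 CPM in the controls and 18.2, 18.9 and 19.6 CPM under decitabine, and then 29.7, 32.4 and 26.9 CPM under the combination. The 3 combination libraries stood apart from the other 6, which lay between 18.1 and 19.6 CPM. In this fit ZMAT3 was the only member called in the combination against decitabine, with a rise of 0.65 (SE 0.09, adjusted p = 0.00075), or 1.57-fold. Leaving out any of the 9 libraries in turn did not end the call, and the rise then ran from 0.58 to 0.72 and the adjusted p reached at most 0.0091. Against control the combination was higher by 0.69 (SE 0.09, adjusted p = 9.6e-06), and decitabine differed by 0.04 (SE 0.09, adjusted p = 0.69), which library size alone turned into a called rise of 0.29 (adjusted p = 0.0099).

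**Figure D2:**
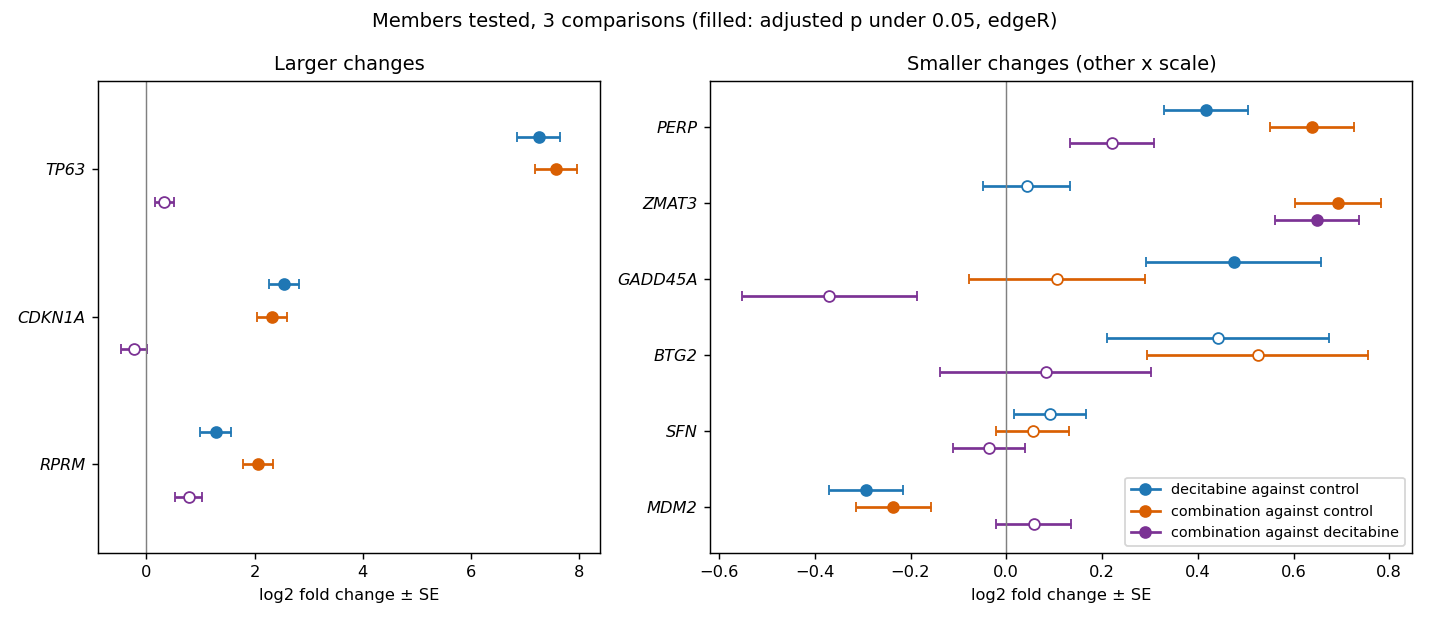
Log2 fold change ± SE from edgeR (x axis) for the 9 members tested, in the 3 comparisons named in the legend, with filled points for an adjusted p under 0.05. The 2 panels have different x scales, and the fitted TP63 values against control rest on 2 control counts, so their size depends on the prior count of the fit. ZMAT3 is the only member with a filled point for the combination against decitabine. MDM2 is the only member with filled points below 0, and library size alone did not make these MDM2 calls.

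Per kilobase of canonical transcript, the order of levels in the controls was SFN at 136, GADD45A at 75.1, PERP at 24.9, MDM2 at 6.94, CDKN1A at 4.90, ZMAT3 at 2.05, RPRM at 1.22, BTG2 at 0.709, TP63 at 0.00669 and TP73 at 0 CPM per kilobase. Neighbours in this order did not overlap in any control library, except TP63 and TP73, which were both at 0 in 1 library. With decitabine CDKN1A reached 28.7 CPM per kilobase, next to PERP at 33.2, and TP63 reached 1.19, between ZMAT3 at 2.12 and BTG2 at 0.964, and the libraries of CDKN1A and PERP overlapped, as did those of TP63 and BTG2. With the combination TP63 was at 1.496 and RPRM at 5.102 CPM per kilobase. Within the decitabine group, replicate 3 had the highest level of its group in 7 of the 9 members tested, against 38.9% of all genes tested.

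The wider response was followed in lists of related genes. Of 39 further genes described as p53 targets, 37 were tested. With decitabine 18 were called higher and 13 lower, with a median of 0.12, and under the combination 17 higher and 11 lower, with a median of 0.21. With library size alone the decitabine split was 22 higher and 8 lower, beside 8838 and 3758 of all 18532 genes. The combination split was then 20 higher and 10 lower, beside 8685 and 3864 of all genes. The list thus moved in both directions. Its counts in the main fit are to be read against 36.3% and 32.5% of all genes under decitabine, and 35.9% and 31.3% under the combination.

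TNFRSF10D encodes a decoy receptor for the death ligand TRAIL. It had no count in the controls, 91, 66 and 104 counts under decitabine, and 211, 200 and 167 under the combination. Set against 3 counts over the control group, this is at least 74.0-fold and at least 168-fold higher. It was also called higher in the combination than in decitabine, by 1.18 (SE 0.19, adjusted p = 0.0029), with no overlap. PHLDA3, an inhibitor of AKT, rose by 2.18 (SE 0.15, adjusted p = 4e-08) and 2.56 (SE 0.15, adjusted p = 8.6e-09), from 6.07 ± 1.05 CPM in the controls to 27.5 ± 5.33 and 35.8 ± 2.06 CPM (SD, n = 3 each). PLK2, a polo-like kinase, rose by 2.18 (SE 0.09, adjusted p = 2.2e-10) and 1.83 (SE 0.09, adjusted p = 1.1e-09).

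SESN2, a stress-induced regulator of mTORC1, fell from 82.9, 65.0 and 53.7 CPM in the controls to 20.1, 21.4 and 19.5 CPM under decitabine and to 12.8, 16.2 and 18.3 CPM under the combination. Its changes were −1.73 (SE 0.16, adjusted p = 1.9e-06) and −2.09 (SE 0.16, adjusted p = 4.8e-07). CYFIP2, an actin regulator, fell by 1.21 and 1.18 on the log2 scale (adjusted p = 2.3e-08 and 2.9e-08). POLH, a DNA polymerase that copies past lesions, fell by 0.90 under decitabine (adjusted p = 3.2e-06). XPC, which recognises lesions in nucleotide excision repair, had 64.3 ± 0.903 CPM in the controls, 44.3 ± 5.44 under decitabine and 29.3 ± 1.39 under the combination (SD, n = 3 each). Each of its steps passed, with −0.54 and −1.14 against control and −0.60 (SE 0.09, adjusted p = 0.0014) between the treated groups.

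Between the treated groups 4 of the 37 were called higher and 4 lower, with a median of −0.02, beside 7.67% and 8.02% of all genes. The number called lower fell to 1 without combination replicate 2 and to 2 without decitabine replicate 2. Over all genes the number called lower fell from 1487 to 480 and to 596 in these fits. PIDD1, a scaffold of caspase-2 activation, was likewise highest in the combination, with 16.7, 18.5 and 19.4 CPM in the controls, 16.5, 16.2 and 22.5 under decitabine, and 29.5, 28.7 and 25.8 under the combination, a rise over decitabine of 0.61 (SE 0.12, adjusted p = 0.0056). RPS27L, a ribosomal protein gene, was higher by 0.40 (SE 0.08, adjusted p = 0.0066). TRIM22, which is also interferon-induced, had 114, 105 and 148 counts under decitabine and 3, 7 and 39 under the combination, lower by −2.86 (SE 0.58, adjusted p = 0.014). Its decitabine level was higher than control by 2.95 (SE 0.60, adjusted p = 0.0019). PMAIP1, which encodes the apoptosis activator NOXA, was lower in the combination than in decitabine by −0.42 (SE 0.10, adjusted p = 0.011).

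Of 30 genes described as targets of p63 or markers of basal epithelium, 24 were tested. With decitabine 16 were called higher and 5 lower, with a median of 1.33, and under the combination 16 higher and 6 lower, with a median of 1.38. Over all genes tested, 36.3% were called higher and 32.5% lower under decitabine, and 35.9% and 31.3% under the combination. KRT17, a basal keratin, had no count in the controls, 73, 194 and 408 counts under decitabine and 105, 125 and 251 under the combination, at least 191-fold and at least 140-fold higher against 3 control counts. KRT6A had 4 counts in the 3 controls together, 40, 36 and 104 under decitabine, and 70, 77 and 95 under the combination, and it rose by 5.15 (adjusted p = 9.1e-06) and 5.61 (adjusted p = 3.2e-06). Keratin genes have close relatives and pseudogenes, so their estimated counts are uncertain.

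KRT14, which marks basal cells, had 1 control count and 90 and 110 counts in the treated groups, a ratio of 76.6 (95% exact counting interval 13.4 to 3057) and 96.0 (16.9 to 3827). KRT5, its usual partner in basal cells, had 2, 11 and 16 counts in the 3 groups and was not tested. KRT15, another basal keratin and the most abundant of these markers in untreated cells, went the other way, from 17.1 ± 1.87 CPM in the controls to 11.7 ± 0.802 and 11.4 ± 0.706 CPM (SD, n = 3 each). It was called lower by −0.55 (SE 0.11, adjusted p = 0.00043) and −0.59 (SE 0.11, adjusted p = 0.00029). FGFR3, a growth factor receptor, had 2, 3 and 3 control counts, 49, 40 and 75 under decitabine, and 81, 94 and 88 under the combination. It rose by 4.07 and 4.79, and between the treated groups by 0.72 (SE 0.23, adjusted p = 0.045), a call not made with library size alone (adjusted p = 0.058).

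Where the mean reached 50 counts in a group, the largest falls of this list were in 3 genes of cell anchorage. COL17A1, a hemidesmosome collagen, fell by 1.20 and 1.76 on the log2 scale (adjusted p = 0.00011 and 4.8e-06), and ITGA6, an integrin subunit of the same structure, fell by 0.88 and 1.03 (adjusted p = 3.1e-06 and 7.6e-07). PKP1, a desmosome protein, fell by 0.99 and 0.98 (adjusted p = 1.7e-08 and 1.9e-08). Between the treated groups 2 of the 24 were called higher, FGFR3 and PTHLH (0.42, adjusted p = 0.036, or 0.063 with library size alone), and 2 lower, the laminin and integrin subunit genes LAMA3 (−0.76, adjusted p = 0.0074) and ITGB4 (−0.64, adjusted p = 0.012), with a median of −0.05, beside 7.67% and 8.02% of all genes. With library size alone the counts were 0 and 2, where 1131 and 1589 of all 18532 genes were called. With 1 library left out the counts ran from 0 to 4 and from 1 to 4. The count called higher went to 0 without control 2, decitabine 1 or 2, or combination 1 or 2, to 1 without combination 3, and to 4 without decitabine 3. The count called lower went to 1 without decitabine 2 or combination 1 or 2, and to 4 without combination 3. Over all genes, from 381 (without combination 2) to 2066 (without combination 3) were called higher, beside 1421 with all 9 libraries. The number called lower over all genes ran from 480 to 1998 in the same fits, beside 1487.

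**Figure D3:**
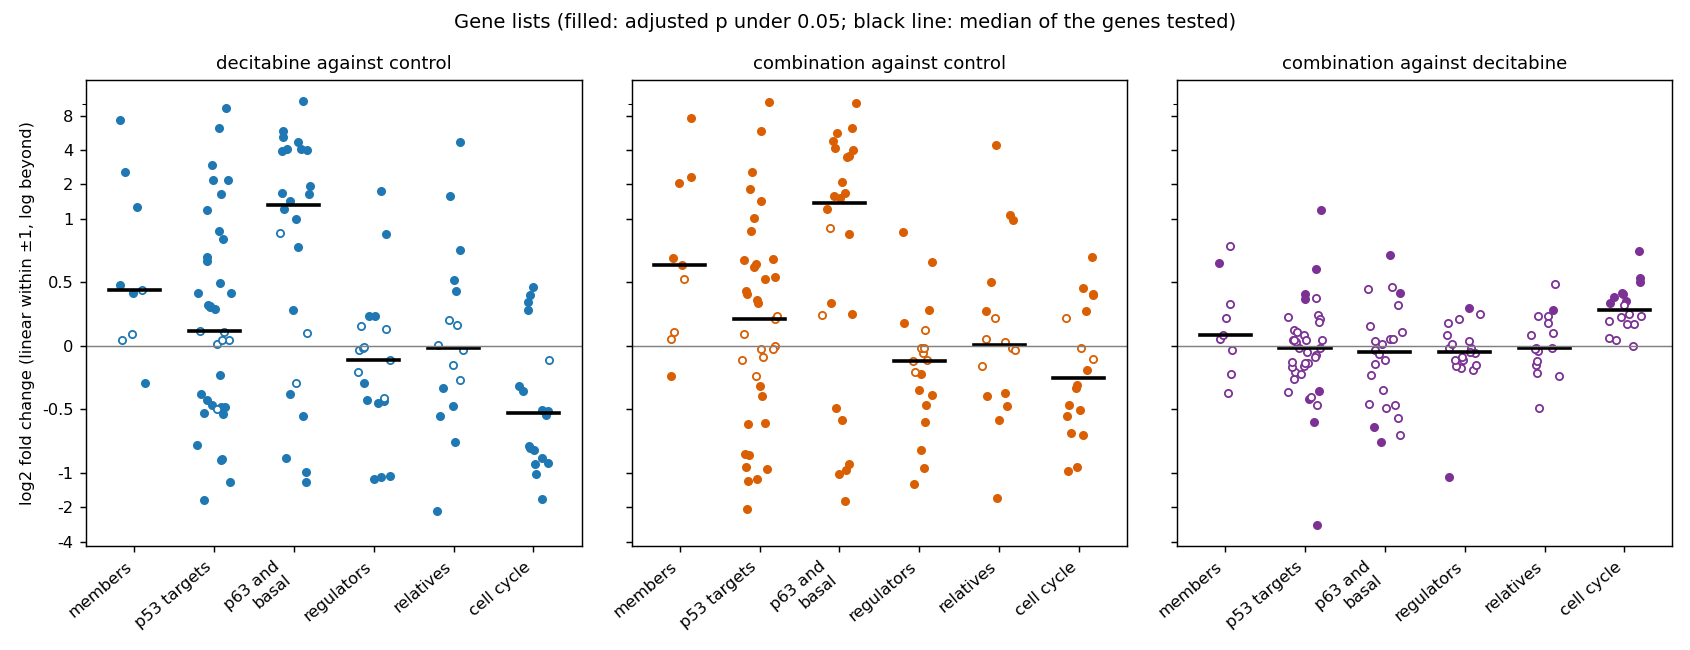
Log2 fold change (y axis, linear within ±1 and logarithmic beyond) of every tested gene of 6 lists, in 1 panel per comparison, with filled points for an adjusted p under 0.05 in edgeR and a black line at the median of each list. Points beyond 8 have no control counts and their fitted size depends on the prior count. The p63 and basal list has the highest median against control, at 1.33 and 1.38, and the cell cycle list the highest for the combination against decitabine, at 0.29.

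Of 19 regulators of the family, 4 were called higher and 7 lower under decitabine, or 21.1% and 36.8% of them beside 36.3% and 32.5% of all genes, and 4 and 8 under the combination, beside 35.9% and 31.3%. With library size alone the split was 9 higher and 4 lower under decitabine, and 7 and 3 under the combination. Over all 18532 genes that scaling called 8838 higher and 3758 lower, and 8685 and 3864. MDM4, which holds p53 inactive together with MDM2, had 34.56, 31.98 and 33.63 CPM in the controls, 16.9, 14.8 and 15.9 under decitabine, and 19.5, 18.7 and 18.6 under the combination. It fell by 1.07 (SE 0.08, adjusted p = 6.5e-08) and by 0.82 (SE 0.08, adjusted p = 8.8e-07), and the difference between the treated groups of 0.25 (SE 0.09) did not pass, at an adjusted p of 0.058, although the libraries did not overlap. PPP1R13L, which encodes the p53 inhibitor iASPP, rose by 0.88 and 0.90 (adjusted p = 2.9e-05 and 2.7e-05). HIPK2, a kinase that phosphorylates p53, fell by 1.14 and 0.96, and KAT5, an acetyltransferase, fell by 1.09 and 1.25. YAP1, a coactivator that binds p73, was higher under decitabine by 0.23 (adjusted p = 0.0067).

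PML, the organiser of nuclear bodies to which p53 is recruited, had 28.1, 31.6 and 32.3 CPM in the controls, 101, 98.0 and 108 under decitabine, and 38.9, 43.0 and 63.1 under the combination. It rose by 1.74 (SE 0.15, adjusted p = 2.4e-06) under decitabine and by 0.66 (SE 0.15, adjusted p = 0.0031) under the combination, and was lower in the combination than in decitabine by −1.08 (SE 0.15, adjusted p = 0.002). PML is also an interferon-induced gene. FBXO45, a ubiquitin ligase subunit that acts on p73, was the 1 regulator called higher there, by 0.30 (SE 0.07, adjusted p = 0.01). That count became 0 without combination replicate 2 and 2 without combination replicate 3 or decitabine replicate 1. Over all genes the number called higher went from 1421 to 381, 2066 and 846 in these fits.

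Of 18 sequence relatives of the members, 16 were tested, and 5 were called higher and 5 lower in each treated group. This is 31.2% each way, near the 36.3% and 32.5% of all genes under decitabine and the 35.9% and 31.3% under the combination. The split was 9 higher and 4 or 5 lower with library size alone. Of all 18532 genes, that scaling called 8838 higher and 3758 lower under decitabine, and 8685 and 3864 under the combination. BTG3 rose by 0.75 and 0.99 (adjusted p = 0.0024 and 0.00028), and TOB1, of the same antiproliferative family, by 0.52 and 0.50 (adjusted p = 1.8e-05 and 2.6e-05). TOB2 was higher under decitabine by 0.43 (adjusted p = 0.0018) and BTG1 under the combination by 0.27 (adjusted p = 0.011). ZMAT4, a relative of ZMAT3, fell from 3.20 ± 0.769 CPM to 0.718 ± 0.152 and 1.01 ± 0.269 CPM (SD, n = 3 each), by 2.15 and 1.66 on the log2 scale. The 14-3-3 genes YWHAG and YWHAQ, relatives of SFN, fell by 0.56 and 0.76 under decitabine and by 0.58 and 0.47 under the combination. YWHAQ was the 1 relative called between the treated groups, higher by 0.28 (adjusted p = 0.015), and the count there became 0 without decitabine 2 or combination 1 or 2. Without combination replicate 3, 2 relatives were called higher and 1 lower. Over all genes the number called higher went from 1421 to 408, 591 and 381 without decitabine 2, combination 1 and combination 2. Without combination 3 it was 2066, with 1998 lower.

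CDKN1A, RPRM, GADD45A and SFN act on cyclins, cyclin-dependent kinases and PCNA. A list of 19 genes held these and other kinases and phosphatases of the cell cycle, such as PLK1 and CDC25B, and 18 were tested. With decitabine 13 were called lower and 4 higher, with a median of −0.53, and under the combination 10 lower and 5 higher, with a median of −0.25. Of all genes, 32.5% were called lower and 36.3% higher under decitabine, and 31.3% and 35.9% under the combination. With library size alone the combination split was 6 lower and 7 higher, beside 3864 lower and 8685 higher of all 18532 genes. PLK1, a kinase needed for mitosis, had 96.9, 104 and 105 CPM in the controls, 34.0, 29.7 and 30.8 under decitabine, and 56.8, 58.8 and 42.5 under the combination. It fell by 1.69 (SE 0.11, adjusted p = 1.1e-08) and by 0.95 (SE 0.11, adjusted p = 2.3e-06). CDC25B, a phosphatase that activates CDK1, fell by 1.03 and 0.98 (adjusted p = 4.3e-08 and 6.6e-08), and PCNA, the replication clamp bound by p21, by 0.93 and 0.70 (adjusted p = 3.3e-05 and 0.00032). CCNE1, a cyclin of the G1 to S step, rose by 0.46 and 0.70 (adjusted p = 0.012 and 0.0007). CCND3 rose by 0.35 and 0.41 (adjusted p = 0.00095 and 0.00028), CDK6 by 0.40 under decitabine (adjusted p = 0.0005) and CCND1 by 0.46 under the combination (adjusted p = 4.4e-05).

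Between the treated groups 8 of the 18 were called higher and 0 lower at an adjusted p under 0.05, where 7.67% and 8.02% of all genes were called. None was lower at an unadjusted p under 0.05 in edgeR or at an adjusted p under 0.05 in DESeq2 or limma. The median of the 18 was 0.29, beside 0.002 over all genes. With 1 library left out, the number called higher ran from 6 to 12 and the number called lower stayed at 0. Over all genes the same fits called 381 to 2066 higher and 480 to 1998 lower. PLK1 was higher by 0.74 (SE 0.11, adjusted p = 0.0012), CCNE2 by 0.54 (SE 0.11, adjusted p = 0.0065), and CDK1 by 0.51 (SE 0.08, adjusted p = 0.0021). CDK1 had 105, 94.9 and 97.2 CPM under decitabine, 146, 150 and 127 under the combination, and 176, 161 and 187 in the controls. Its combination level lay between the other groups, as that of PLK1 did, while CDKN1A did not pass the test between the treated groups.

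**Figure D4:**
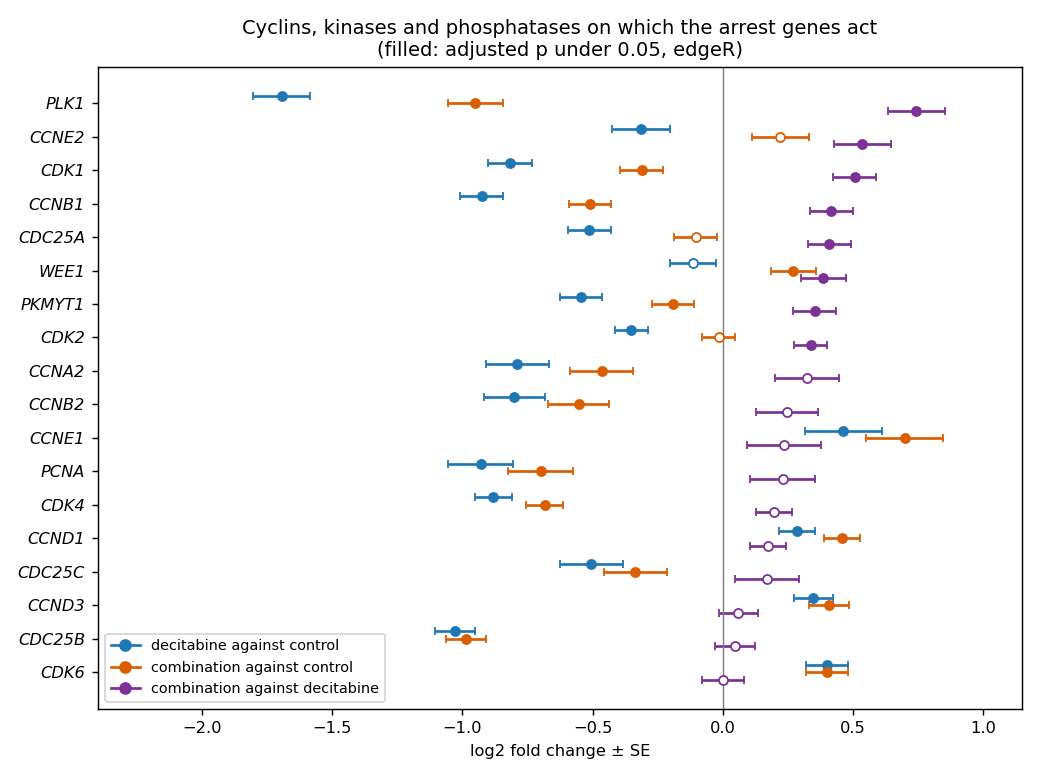
Log2 fold change ± SE from edgeR (x axis) for 18 cyclins, kinases, phosphatases and related genes, ordered by the combination against decitabine, with filled points for an adjusted p under 0.05. The points for the combination against decitabine lie at or above 0 (CDK6, at 0.00, was at −0.02 with library size alone), and 8 of the 18, PLK1 at the top with 0.74, are filled.

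The genes whose course over the 9 libraries was most like that of TP63 were found by the root-mean-square difference of centred log2 CPM. The closest was TDRD6, at 0.170, with 0.166 ± 0.0769 CPM in the controls, 12.9 ± 1.10 under decitabine and 17.7 ± 1.87 under the combination (SD, n = 3 each). CALHM3, TUBA3E, SLC6A15 and TDRD1 followed, at 0.232 to 0.258. TUBA3E and TDRD1 had no control counts and were at least 84.5-fold and 74.6-fold higher under decitabine, against 3 counts over the group. For RPRM the closest were CCDC88B at 0.168, MSANTD1 at 0.168, UBE2FP1 at 0.201, RHBDL1 at 0.218 and SNAI1 at 0.230. SNAI1, a transcription factor known from epithelial to mesenchymal transition, had 2.38 ± 0.599, 7.29 ± 2.27 and 9.97 ± 0.502 CPM in the 3 groups (SD, n = 3 each). The likeness is a description over 9 libraries of 3 conditions, in which libraries of a group share their treatment.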

How the data were processed

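Libraries of PC-3 cells were made with a BGISEQ-500 protocol. According to the submitters' processing notes the reads were trimmed with Trim Galore 0.6.4 and quantified with kallisto 0.4.6 against GRCh38.p13. The authors deposited estimated counts per Ensembl gene, used here after rounding to whole numbers, and edgeR 3.17 log2 CPM, which were not used. Estimated counts share reads between similar transcripts, so near-identical genes are uncertain, and strandedness is not given in the sources used here. Per the labels, libraries form 3 groups of 3.

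The quasi-likelihood test of edgeR 4.0.16 (R 4.3.3, robust fit) was run on all 9 libraries after TMM scaling and filterByExpr, with Benjamini-Hochberg adjustment over 18532 genes and a threshold of 0.05 on the adjusted p. The SE is the log2 fold change divided by the square root of F. The study's methods name voom and limma, which were run as an alternative (limma 3.58.1) beside DESeq2 1.42.0, other scalings and filters, a replicate block and leave-one-out fits. The fit was tested on simulated data, where it missed more of the changed genes at low counts than at high counts. All replicate pairs differed by more than sampling noise, with chi-square per degree of freedom of 5.86 to 23.5. CPM values are TMM-scaled, and levels per kilobase use the length of the canonical GENCODE transcript. Of 60617 identifiers, 60357 matched a name. Intervals and limits for low counts cover counting error only.

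The genes and the lists were chosen with earlier results of these data known. Named were all 10 members, MDM4, and in each list and comparison the 3 largest called rises and falls whose groups did not overlap and whose mean reached 50 counts in a group. KRT14, KRT15 and KRT5 were named as basal markers. For TP63, TP73 and RPRM the 5 genes with the smallest difference in course were to be named, and TP73 had too few counts for this. A gene named by this rule and some marker genes are not reported here.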

Additional observations from a re-analysis of the deposited data

How the results depend on the processing

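Over 17 alternatives, 427 of 459 values of single members kept their direction and their side of the threshold, 17 gained a call, 10 lost one and 5 turned in direction. The 5 that turned were not called in either fit. With 1 library left out, GADD45A in the combination against control ran from −0.028 (without control replicate 3; −0.02 without combination replicate 3) to 0.26. In the combination against decitabine CDKN1A ran from −0.44 to 0.036 and SFN from −0.093 to 0.042, both highest without decitabine replicate 3, and BTG2 from −0.13 (without decitabine replicate 1) to 0.21. With library size alone, decitabine against control gave 8 members higher, 0 lower and 8 further p53 targets lower, and the combination against control gave 0 members lower. Over all genes that scaling called 8838 higher and 3758 lower for decitabine, and 8685 and 3864 for the combination. For the combination against decitabine, 2 members were called higher with the DESeq2 test, with voom and limma, with no filter and with the replicate block, and 1 lower with no filter. The gain was RPRM in each, at an adjusted p of 0.032, 0.026, 0.00045 and 0.037, and the call lower was GADD45A at −0.36. Leaving out 1 library gave 4 to 6 members higher for decitabine and, for the combination against decitabine, 1 to 3 members higher and 1 to 5 further p53 targets lower, the ends at 3 members without decitabine replicate 3 and at 1 target without combination replicate 2. It gave 0 to 1 members lower for the combination against control, 0 without control replicate 1. For the combination against decitabine these fits called 381 to 2066 of all genes higher and 480 to 1998 lower. The labels do not say what the replicate numbers share, and same-numbered libraries did not all correlate above 0.1 in their deviations from the group means (−0.017 to 0.233, others −0.22 to 0.058), so the numbers were not taken as pairs. Between decitabine and the combination the 3 same-numbered pairs correlated at 0.233, 0.036 and 0.229. Each of these 6 libraries correlated best with its own number in the other treated group. Deviations from a mean of 3 libraries depend on each other, so these correlations are not independent. Whether same-numbered libraries share an effect was not tested. The replicate block called RPRM in the combination against decitabine and BTG2 in the combination against control (adjusted p = 0.037 and 0.034) and did not call GADD45A with decitabine (adjusted p = 0.12). The causes of these shifts were not tested. Depth limits TP73, with at most 5 counts in a group, and the size of the TP63 rise, whose interval rests on 2 control counts.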
